A study of Danio rerio with 14 samples.

Results

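The genes lcp1, coro1a, aif1l, grna.2 and cd74b were taken as leukocyte markers. They were followed in zebrafish eyes after exposure to propylthiouracil (PTU), a drug that blocks thyroid hormone synthesis. They were chosen by gene symbol, with older symbols of the array platform brought to current ones, and make up 5 of the 8445 genes and 8 of the 16913 probes analysed. RNA had been extracted from eyes of Wild-type AB larvae after 350 mg/L PTU or in unexposed controls, at 8 days post fertilization (dpf), following 3 days of recovery in clean water, and at 5 dpf, when the exposure ended. Each of the 4 groups had 3 extracts, each extract pooled the eyes of 10 larvae, and the 12 extracts were compared on 14 two-colour arrays. Eggs of several breeding pairs had been mixed before they were spread over the exposure plates, so that the pools are not separate spawns, and the p-values measure the spread between arrays and pools, which may be technical in part. Pooled whole eyes cannot show which cell made an RNA, and more cells of a type cannot be told apart from more RNA per cell.

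Macrophages, microglia and neutrophils are the phagocytes of the larval fish. Microglia are the resident macrophages of retina and brain, where they clear dying neurons, and neutrophils are drawn to wounds and infections. All of them crawl by rapid remodelling of actin, digest what they engulf in lysosomes, and, in the case of macrophages and related cells, show peptides to T cells on major histocompatibility complex (MHC) molecules. The 5 markers stand for these functions. The products of lcp1, coro1a and aif1l bind actin, grna.2 encodes a granulin, one of a family of small cysteine-rich secreted peptides, and cd74b encodes an invariant chain, the chaperone of MHC class II molecules.

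Of the 5 markers, 4 rose in PTU eyes at 8 dpf (lcp1, coro1a, grna.2 and cd74b) and 3 at 5 dpf (lcp1, coro1a and grna.2), by limma with a Benjamini-Hochberg adjusted p under 0.05 over all genes. Of all genes tested, 19.6% rose at 8 dpf and 24.2% at 5 dpf. None of the 5 fell at either age, while 13.2% of all genes fell at 8 dpf and 22.8% at 5 dpf. At an unadjusted p under 0.05, 0 markers were lower in PTU eyes at 8 dpf and 1 was lower at 5 dpf, namely aif1l. Ranked among the 8445 genes by the size of the rise, grna.2 stood at place 2 at 8 dpf and 7 at 5 dpf, lcp1 at 7 and 13, and coro1a at 32 and 66. The place of cd74b was 22 at 8 dpf and 4030 at 5 dpf, and that of aif1l was 994 and 7007.

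**Figure D1:**
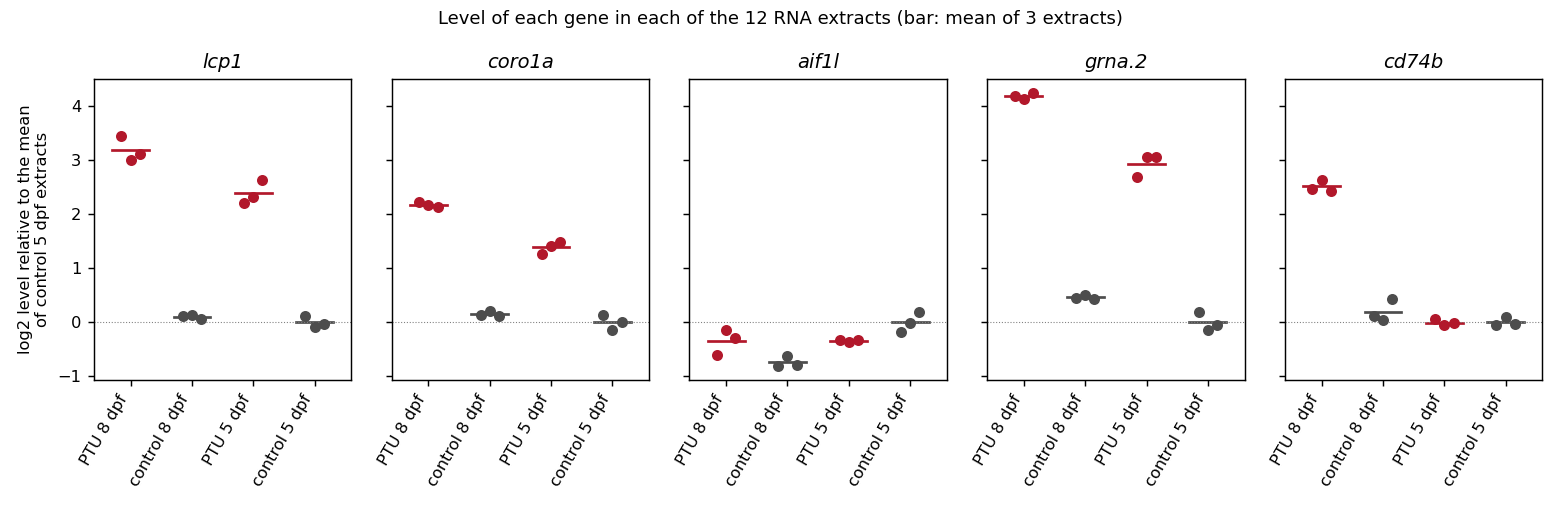
Log2 level of lcp1, coro1a, aif1l, grna.2 and cd74b (vertical axis, relative to the mean of the 3 control extracts of 5 dpf) in each of the 12 RNA extracts, with PTU extracts in red, control extracts in grey and a bar at the mean of each 3. For lcp1, coro1a and grna.2 all PTU extracts lie above all control extracts of their age, for cd74b this is so at 8 dpf alone, and the points of aif1l stay between -0.81 and 0.19.

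Levels are given as log2 values for each extract relative to the mean of the 3 control extracts of 5 dpf, so that a level of 1 is a doubling within 1 gene; levels of different genes cannot be compared on this scale. A log2 fold change is PTU over control of the same age, with its standard error (SE) from the model over the 14 arrays. The array probes report relative RNA and not protein or cell number.

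The gene lcp1 encodes L-plastin, which bundles actin filaments and is used in zebrafish as a marker of all leukocytes. It lies on chromosome 9 (GRCz12tu positions 58605836 to 58626903) and was read by 1 probe. At 8 dpf its level was 3.45, 3.01 and 3.12 in the PTU extracts, against 0.12, 0.14 and 0.06 in the control extracts. At 5 dpf it was 2.21, 2.32 and 2.63 in the PTU extracts, against 0.12, -0.09 and -0.03 in the control extracts. The groups were far apart at both ages, with the lowest PTU extract over 2 log2 units above the highest control extract. The log2 fold change was 3.12 ± 0.11 at 8 dpf (adjusted p = 9.35e-11), or 8.68-fold, and 2.35 ± 0.10 at 5 dpf (adjusted p = 2.73e-10), or 5.11-fold.

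The gene coro1a encodes coronin 1A, an actin-binding protein of blood cells whose promoter is used to label leukocytes in living zebrafish. It lies on chromosome 3 (29714319 to 29730451) and was read by 2 probes. Its level at 8 dpf was 2.22, 2.17 and 2.14 in the PTU extracts and 0.14, 0.20 and 0.12 in the control extracts. Its level at 5 dpf was 1.26, 1.42 and 1.49 in the PTU extracts and 0.13, -0.14 and 0.01 in the control extracts. No PTU extract overlapped a control extract. The log2 fold change was 2.03 ± 0.08 at 8 dpf (adjusted p = 2.18e-10), or 4.08-fold, and 1.37 ± 0.07 at 5 dpf (adjusted p = 1.58e-09), or 2.58-fold. Both probes gave a rise at both ages but of different size, with 2.57 and 1.49 at 8 dpf and 1.71 and 1.01 at 5 dpf on the log2 scale, so that the gene's value is a mean of unlike probes.

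The gene grna.2 encodes a granulin, listed as grn2 on the array platform. In mammals, the related progranulin is made by macrophages and microglia and is cut into granulins in the lysosome. The gene lies on chromosome 19 (42823662 to 42827888) and was read by 2 probes. At 8 dpf its level was 4.20, 4.13 and 4.26 in the PTU extracts, against 0.45, 0.51 and 0.44 in the control extracts. At 5 dpf it was 2.69, 3.07 and 3.06 in the PTU extracts, against 0.19, -0.15 and -0.04 in the control extracts. The PTU extracts stood above all control extracts at both ages, and the 3 extracts of 8 dpf PTU eyes differed from each other by less than those of 5 dpf. The log2 fold change was 3.73 ± 0.10 at 8 dpf (adjusted p = 2.53e-12), or 13.3-fold, and 2.89 ± 0.09 at 5 dpf (adjusted p = 1.16e-11), or 7.43-fold. The probes gave 3.49 and 3.97 at 8 dpf, and 2.67 and 3.08 at 5 dpf.

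The gene cd74b encodes a form of the invariant chain, which holds MHC class II molecules until they meet peptides in the endosome. It lies on chromosome 21 (36129856 to 36134127) and was read by 1 probe. Its level at 8 dpf was 2.48, 2.64 and 2.43 in the PTU extracts and 0.11, 0.04 and 0.42 in the control extracts. At 5 dpf the level was 0.06, -0.06 and -0.02 in the PTU extracts, among the values of -0.05, 0.09 and -0.04 in the control extracts. PTU and control extracts were thus far apart at 8 dpf and overlapped at 5 dpf. The log2 fold change was 2.30 ± 0.09 at 8 dpf (adjusted p = 3.32e-10), or 4.92-fold, while at 5 dpf it was 0.01 ± 0.09 (adjusted p = 0.906), with a 95% confidence interval of -0.17 to 0.20.

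The gene aif1l encodes an actin-binding protein related to Aif1, which is known as Iba1 and used as a microglial marker in mammals. It lies on chromosome 5 (35172369 to 35198521) and was read by 2 probes. At 8 dpf its level was -0.61, -0.14 and -0.29 in the PTU extracts, against -0.81, -0.62 and -0.79 in the control extracts. At 5 dpf it was -0.33, -0.37 and -0.34 in the PTU extracts, against -0.17, -0.01 and 0.19 in the control extracts. The PTU extracts lay just above the control extracts at 8 dpf and just below them at 5 dpf. The log2 fold change of 0.37 ± 0.15 at 8 dpf (adjusted p = 0.0748) and of -0.31 ± 0.14 at 5 dpf (adjusted p = 0.0819) did not pass the threshold. The arrays that paired PTU with control split by dye, with a mean log2 ratio of 0.57 where PTU was in Cy5 and 0.11 where it was in Cy3 at 8 dpf, and of -0.15 and -0.57 at 5 dpf. With a dye term in the model, aif1l passed the threshold at both ages, with 0.38 at 8 dpf (adjusted p = 0.0232) and -0.33 at 5 dpf (adjusted p = 0.0283). Over the 21 alternatives, its adjusted p reached 0.372 at 8 dpf and 0.341 at 5 dpf, and its direction at each age was the same in every one.

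For 5 of the 5 markers the 3 PTU extracts lay above the 3 control extracts at 8 dpf, as they did for 20.6% of all genes. At 5 dpf this was so for 3 of the 5 and for 26.8% of all genes. For aif1l the PTU extracts of 5 dpf lay below, and the share of all genes with that order is not given here. The same ratios could be read directly from the arrays that carried PTU and control of the same age. Of the 4 such arrays of 8 dpf, all 4 gave a higher PTU signal for lcp1 (log2 ratio 2.90 to 3.43), coro1a (1.90 to 2.16), grna.2 (3.57 to 3.93) and cd74b (2.03 to 2.42), and 3 did for aif1l (-0.15 to 0.78). Of the 6 such arrays of 5 dpf, all 6 gave a higher PTU signal for lcp1 (2.05 to 2.85), coro1a (1.19 to 1.60) and grna.2 (2.69 to 3.29). For cd74b 2 of these 6 arrays were above 0 (-0.09 to 0.10), and for aif1l none was (-0.67 to -0.01).

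With the thresholds of the study, an absolute log2 fold change over 0.75 and an adjusted p under 0.05 with arrays taken as independent, 6 of the 8 probes were called higher in PTU eyes at 8 dpf and 5 of the 8 at 5 dpf. Of all probes, 3.83% were called higher at 8 dpf and 3.93% at 5 dpf. The probes not called at 8 dpf were both probes of aif1l, with 0.53 ± 0.13 and 0.22 ± 0.16. The first of them passed the adjusted p (0.00689) and missed only the fold threshold, while the other missed both (adjusted p = 0.310). At 5 dpf the probe of cd74b was not called either.

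The effect of PTU was then compared between the ages, that is, at 8 dpf after the recovery period against 5 dpf. It was more positive at 8 dpf for 5 of the 5 markers, which was the case for 11.9% of all genes, while it was more negative for none of the 5 and for 6.92% of all genes. At an unadjusted p under 0.05 the count of more negative markers was also 0. The difference of the log2 fold changes was 2.28 ± 0.13 for cd74b (adjusted p = 9.74e-08), 0.84 ± 0.13 for grna.2 (adjusted p = 0.000521) and 0.76 ± 0.14 for lcp1 (adjusted p = 0.00242). It was 0.66 ± 0.10 for coro1a (adjusted p = 0.000597) and 0.68 ± 0.21 for aif1l (adjusted p = 0.0324). Only 1 of the aif1l probes passed on its own in limma with arrays as independent. That probe gave 0.82 ± 0.17 (adjusted p = 0.00422) and the other 0.51 ± 0.20 (adjusted p = 0.0961). For aif1l the difference lost the threshold in 10 of the 12 fits that left out 1 extract, with values of 0.55 to 0.73 and an adjusted p of up to 0.138. Of the 12, it passed only where control 8 dpf replicate 2 (0.80), or else PTU 8 dpf replicate 1 (0.84), was left out. The difference of the other 4 markers passed in all 21 alternatives, with the largest adjusted p at 0.0461 for lcp1, 0.0361 for coro1a, 0.0285 for grna.2 and 4.39e-05 for cd74b.

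The ages were also set against each other within PTU and within control eyes. In PTU eyes, 4 of the 5 markers rose at 8 dpf against 5 dpf, as did 8.77% of all genes, and none fell, as 6.69% of all genes did; at an unadjusted p under 0.05, 0 of the 5 were lower. These rises were 2.46 ± 0.12 for cd74b (adjusted p = 2.53e-08), 1.303 ± 0.121 for grna.2 (adjusted p = 1.07e-05), 0.82 ± 0.14 for lcp1 (adjusted p = 0.00119) and 0.80 ± 0.10 for coro1a (adjusted p = 0.000135). The rise of lcp1 missed the threshold without control 5 dpf replicate 1, at 0.80 (adjusted p = 0.0659), and without PTU 5 dpf replicate 1, at 0.73 (adjusted p = 0.123). In the extracts themselves, the lowest PTU level at 8 dpf was above the highest at 5 dpf for these 4 genes. The share of all genes with such a separation is not given here, so this count carries no weight of its own. The PTU levels of aif1l overlapped between the ages, with a change of 0.08 ± 0.19 (adjusted p = 0.835).

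In control eyes 1 of the 5 markers rose at 8 dpf against 5 dpf, where 4.67% of all genes rose, and none fell, where 7.05% of all genes fell. The 1 was grna.2, with 0.46 ± 0.12 (adjusted p = 0.0214). It missed the threshold in 6 of 20 alternatives, at 0.67 with arrays scaled to the same spread (adjusted p = 0.0595), at 0.46 with the replicate number as a block (adjusted p = 0.0604) and in 4 of the fits that left out 1 extract. Those 4 were without control 5 dpf replicate 1 (0.62), PTU 5 dpf replicate 1 (0.37), control 8 dpf replicate 1 (0.41) and PTU 8 dpf replicate 2 (0.47). The change was 0.06 ± 0.14 for lcp1 (adjusted p = 0.837), 0.14 ± 0.10 for coro1a (adjusted p = 0.404) and 0.18 ± 0.12 for cd74b (adjusted p = 0.389). For aif1l it was -0.60 ± 0.19 (adjusted p = 0.0585, unadjusted p = 0.00748 in limma), the only marker lower at an unadjusted p under 0.05. Its 3 control extracts of 8 dpf lay below the 3 of 5 dpf, an order whose share over all genes is not given here. In 7 of 20 alternatives this fall of aif1l in control eyes passed the threshold.

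The levels of lcp1, coro1a and grna.2 ran nearly in parallel over the 12 extracts, with a Pearson r of 0.991 to 0.997 between each pair. The r of cd74b with these 3 genes was 0.694 to 0.768, and that of aif1l with the other 4 was -0.05 to -0.01. The extracts share arrays and fall into 4 groups, so that these values describe the pattern of the groups and carry no test. Among all other genes, those most like lcp1 were arpc1b (r = 0.994), lgals9l1 (0.994) and ctsh (0.990), those most like coro1a were stx11a (0.996), lgals9l1 (0.994) and me1 (0.993), and those most like grna.2 were stx11a (0.995), arpc1b (0.993) and ctsc (0.993). Of these, arpc1b encodes a subunit of the actin-nucleating Arp2/3 complex, lgals9l1 a galectin, ctsh and ctsc lysosomal cathepsins, stx11a a syntaxin of membrane fusion and me1 malic enzyme. The genes most like cd74b were its paralog cd74a (0.997), si:dkey-21e2.10 (0.986) and si:dkey-21e2.14 (0.983). For aif1l they were hmgn6 (0.958), trappc3 (0.956) and map1lc3a (0.939), and no leukocyte list used here holds any of these 3. In these extracts aif1l thus did not vary with the other 4 genes, and it is counted as a marker by its choice alone.

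**Figure D2:**
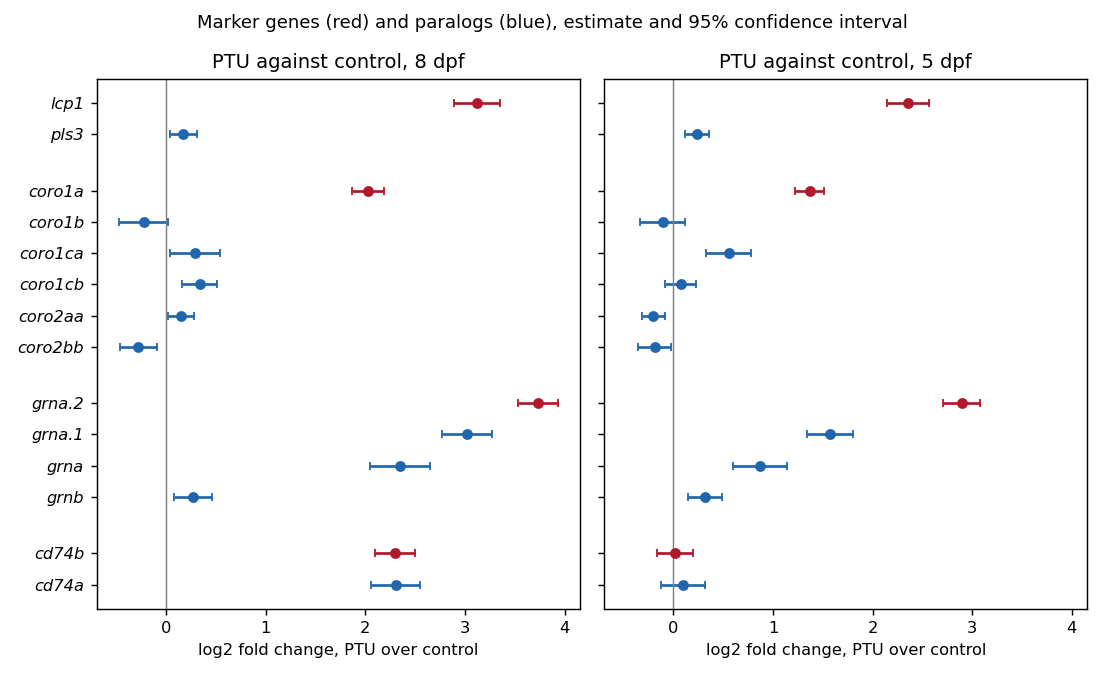
Log2 fold change of PTU over control (horizontal axis) at 8 dpf (left) and 5 dpf (right) for 4 of the markers (red) and their measured paralogs (blue), with bars for the 95% confidence interval of the model over 14 arrays. The points of lcp1 and coro1a stand apart from those of the other plastin and the other coronins, cd74a and cd74b lie together at both ages, and the granulins are spread from 0.27 to 3.73 at 8 dpf.

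The paralogs of the markers, 10 of 14 of which were measured, were examined for the same rise. At each age 5 of the 10 were higher and 1 was lower past the threshold. The same threshold called 19.6% of all genes higher at 8 dpf and 24.2% at 5 dpf. It called 13.2% of all genes lower at 8 dpf and 22.8% at 5 dpf. The paralog counts were not tested against these shares. The other plastin, pls3, which is found in many solid tissues, had a log2 fold change of 0.17 ± 0.06 at 8 dpf (adjusted p = 0.0503) and rose by 0.24 ± 0.06 at 5 dpf (adjusted p = 0.00354), against 3.12 and 2.35 for lcp1. Among the coronins, coro1cb rose by 0.34 ± 0.08 at 8 dpf (adjusted p = 0.00522) and coro1ca by 0.56 ± 0.11 at 5 dpf (adjusted p = 0.000513). In the same family, coro2bb fell by 0.28 ± 0.09 at 8 dpf (adjusted p = 0.0224) and coro2aa by 0.20 ± 0.05 at 5 dpf (adjusted p = 0.00582). As for the 5 markers, the PTU effect on coro2aa was more positive at 8 dpf, by 0.36 ± 0.08 (limma adjusted p = 0.00705). No value of coro1b passed, with -0.23 at 8 dpf and -0.11 at 5 dpf. All 5 of these coronins were thus within 0.56 of 0, against 2.03 and 1.37 for coro1a, and the differences between paralogs were not tested.

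The granulins did not move alike. The gene grna.1 lies beside grna.2 on chromosome 19 (42815307 to 42820798). Its level at 8 dpf was 3.14, 3.24 and 3.14 in the PTU extracts, against 0.01, 0.10 and 0.29 in the control extracts. Its level at 5 dpf was 1.39, 1.61 and 1.73 in the PTU extracts, against -0.02, -0.18 and 0.20 in the control extracts. As for grna.2, no PTU extract overlapped a control extract, and the log2 fold change was 3.02 ± 0.12 at 8 dpf (adjusted p = 2.99e-10) and 1.57 ± 0.11 at 5 dpf (adjusted p = 2.91e-08). The gene grna, which encodes a longer progranulin, rose by 2.35 ± 0.14 at 8 dpf (adjusted p = 1.3e-08) and by 0.87 ± 0.13 at 5 dpf (adjusted p = 4.97e-05). The rises of both were more positive at 8 dpf, by 1.45 ± 0.16 for grna.1 (adjusted p = 4.93e-05) and by 1.48 ± 0.19 for grna (adjusted p = 0.000135). The other progranulin, grnb, rose by 0.27 ± 0.09 at 8 dpf (adjusted p = 0.0295) and 0.32 ± 0.08 at 5 dpf (adjusted p = 0.00418), and its effect differed by -0.05 ± 0.12 between the ages (adjusted p = 0.814). A long noncoding RNA gene, grnas, whose interval on chromosome 19 (42815015 to 42834208) spans grna.1 and grna.2, was looked up after its values were seen. It fell by 0.54 ± 0.12 at 8 dpf (adjusted p = 0.00263) and by 0.32 ± 0.11 at 5 dpf (adjusted p = 0.0211), opposite in sign to the granulin genes of that interval.

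The second invariant chain, cd74a, had a like pattern. Its level at 8 dpf was 2.48, 2.76 and 2.26 in the PTU extracts, against 0.04, 0.10 and 0.39 in the control extracts. At 5 dpf it was 0.07, 0.02 and 0.10 in the PTU extracts, and -0.03, 0.05 and -0.02 in the control extracts. The groups were apart at 8 dpf and overlapped at 5 dpf. The log2 fold change was 2.30 ± 0.12 at 8 dpf (adjusted p = 1.89e-09) and 0.10 ± 0.10 at 5 dpf (adjusted p = 0.465), so that the ages differed by 2.21 ± 0.16 (adjusted p = 5.9e-07). Both probes of cd74a gave this pattern, with 2.25 and 2.36 at 8 dpf and 0.11 at 5 dpf each. Whether the probes of the paralogs bind each other's RNA was not tested, since the probe sequences were not analysed here.

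The wider leukocyte and antigen presentation lists hold 123 genes beside the 5 markers. Of those, 53 were measured, ctss2.1 being in 2 of the lists. The antigen presentation list also holds genes of general use, such as pdia3 for protein folding. Of these 53, 46 rose and none fell at 8 dpf, and 41 rose and none fell at 5 dpf, with 0 lower at an unadjusted p under 0.05 at either age. The median log2 fold change of the 53 was 1.01 at 8 dpf and 0.73 at 5 dpf, against 0.01 and -0.001 over all genes tested. Among all genes, 19.6% were higher in PTU eyes at 8 dpf and 24.2% at 5 dpf. Lower levels in PTU eyes were called for 13.2% at 8 dpf and for 22.8% at 5 dpf. The counts of rises and falls given below for the single lists of these genes stand beside the same shares. Counts of differences between the ages stand beside 11.9% of all genes more positive at 8 dpf and 6.92% more negative. None of these counts was tested against the shares. The lists were drawn up with earlier results of these data known and are no independent evidence of the direction. The authors had also left out spots near background on all arrays. A gene near background in all control eyes could then stay in only if PTU eyes had more signal, which favours rises in such counts. The same holds for the 5 markers, and how far it shaped the counts was not tested. Of the defining markers, csf1ra and csf1rb of macrophages, p2ry12 of microglia, mpx of neutrophils and the common leukocyte antigen ptprc were not analysed here, whereas mpeg1.1, spi1b, irf8 and lyz were measured.

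**Figure D3:**
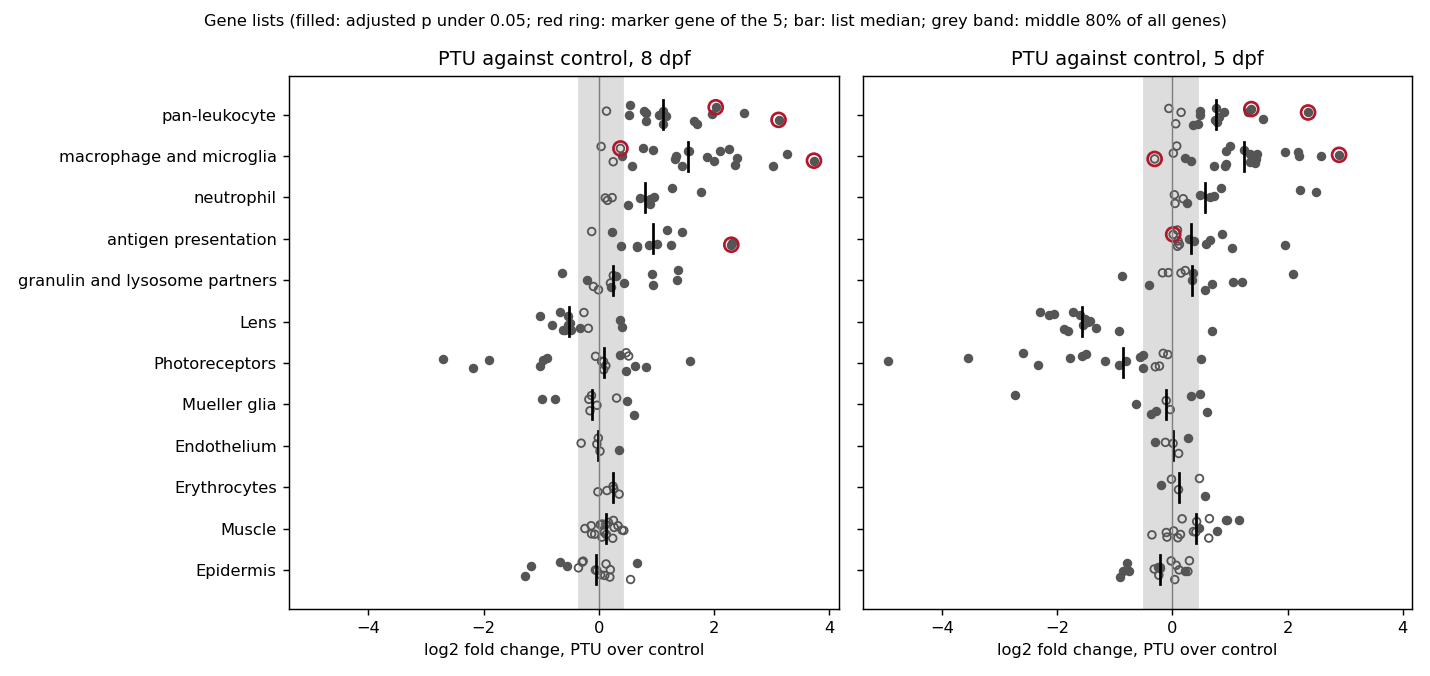
Log2 fold change of PTU over control (horizontal axis) at 8 dpf (left) and 5 dpf (right) for each measured gene of 5 leukocyte, antigen presentation and lysosome lists and 7 lists of other cell types. Points are filled where the adjusted p was under 0.05, with a bar at the list median, red rings around the 5 markers and a grey band over the middle 80% of all genes. Nearly all points of the pan-leukocyte and macrophage lists lie right of 0, while the lens list has its median at -0.52 at 8 dpf and -1.57 at 5 dpf.

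Of 14 measured pan-leukocyte genes beside lcp1 and coro1a, 13 rose at 8 dpf and 11 at 5 dpf. The subunit arpc1b rose by 1.71 ± 0.08 at 8 dpf (adjusted p = 1.06e-09) and 1.31 ± 0.07 at 5 dpf (adjusted p = 4.32e-09). The gene fcer1gl, for a signalling adaptor of Fc receptors, rose by 2.52 ± 0.13 at 8 dpf (adjusted p = 3.71e-09) and 1.57 ± 0.12 at 5 dpf (adjusted p = 9.13e-08). The PTU effect on 9 of these 14 genes was more positive at 8 dpf and on none more negative, against 11.9% and 6.92% of all genes.

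Of 19 measured macrophage and microglia genes beside grna.2 and aif1l, 17 rose at 8 dpf and 17 at 5 dpf. The gene spi1b, for the myeloid transcription factor PU.1, rose by 2.36 ± 0.10 at 8 dpf (adjusted p = 4.11e-10) and 1.45 ± 0.09 at 5 dpf (adjusted p = 1.25e-08). The chemokine gene ccl34a.4 rose by 2.09 ± 0.11 (adjusted p = 3.74e-09) and 2.19 ± 0.10 (adjusted p = 6.57e-10), and the galectin gene lgals9l1 by 3.03 ± 0.13 (adjusted p = 4.11e-10) and 2.17 ± 0.12 (adjusted p = 2.64e-09). Another chemokine gene, ccl34b.1, also moved at 8 dpf alone, with a rise of 2.00 ± 0.09 at 8 dpf (adjusted p = 4.11e-10) and a value of 0.08 ± 0.08 at 5 dpf (adjusted p = 0.454). The PTU effect on 8 of the 19 was more positive at 8 dpf and on 2 more negative, where the shares of all genes were 11.9% and 6.92%. Those 2 were cebpb, a transcription factor gene of myeloid and other cells, with 1.54 at 8 dpf and 2.58 at 5 dpf (difference -1.03 ± 0.20, adjusted p = 0.00264), and apoeb, an apolipoprotein gene expressed in microglia, with 0.94 and 1.47 (difference -0.53 ± 0.14, adjusted p = 0.0152). The gene apoeb, and irf8 and lyz below, were named for their place in the lists after their values were seen. The macrophage marker mpeg1.1 rose by 0.77 ± 0.10 at 8 dpf (adjusted p = 2.48e-05) and 0.92 ± 0.09 at 5 dpf (adjusted p = 7.11e-07). The myeloid regulator irf8 rose by 1.57 ± 0.13 (adjusted p = 2.69e-07) and 0.93 ± 0.11 (adjusted p = 8.93e-06).

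Of 10 measured neutrophil genes, 7 rose at 8 dpf and 7 at 5 dpf, with a median of 0.80 and 0.57. The granule protease gene npsn rose by 0.71 ± 0.09 at 8 dpf (adjusted p = 3.59e-05) and 0.47 ± 0.08 at 5 dpf (adjusted p = 0.000294). The lysozyme gene lyz rose by 0.51 ± 0.10 (adjusted p = 0.00167) and 0.66 ± 0.09 (adjusted p = 4.07e-05). The metalloproteinase genes mmp9 and mmp13a, which epithelial cells and macrophages also express, both rose at each age, mmp9 by 1.78 at 8 dpf and 2.49 at 5 dpf, and mmp13a by 0.89 at 8 dpf and 2.21 at 5 dpf. Their effects were more negative at 8 dpf, by -0.71 ± 0.20 for mmp9 (adjusted p = 0.0208) and -1.32 ± 0.30 for mmp13a (adjusted p = 0.00758). For these 2 genes the order was the opposite of that seen in lcp1, coro1a, grna.2 and cd74b. Of the 10 neutrophil genes, the effect was more negative at 8 dpf for these 2 and more positive for 2 others. The median difference of the 10 was 0.12. Among all genes, 11.9% had a more positive and 6.92% a more negative effect at 8 dpf.

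**Figure D4:**
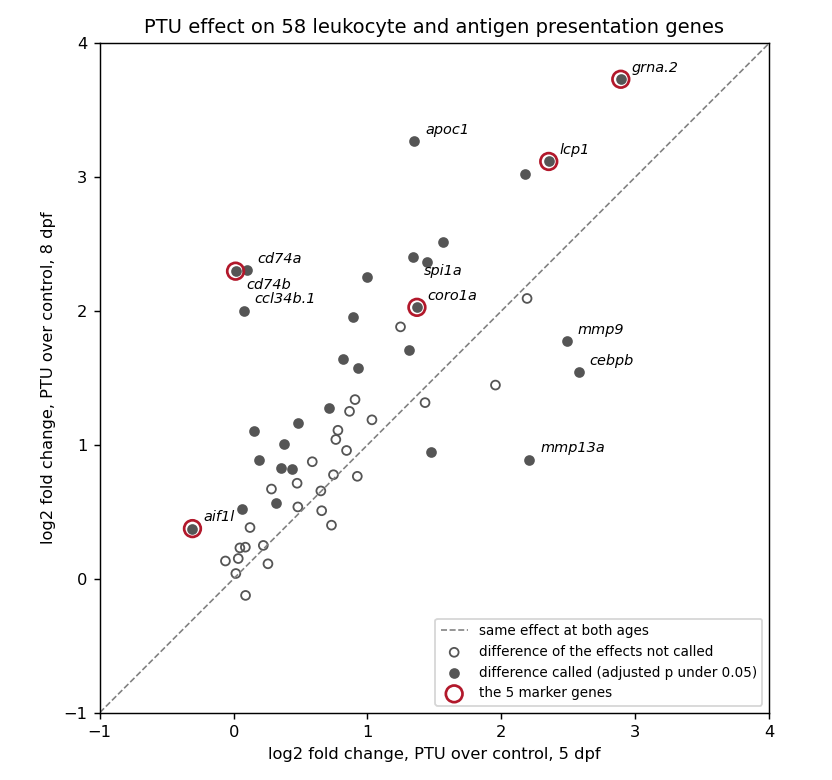
Log2 fold change of PTU over control at 8 dpf (vertical axis) against 5 dpf (horizontal axis) for the 58 measured genes of the leukocyte and antigen presentation lists. Points are filled where the difference between the ages had an adjusted p under 0.05, with red rings around the 5 markers and a dashed line of equal effects. The 5 markers lie above the line, cd74b, cd74a and ccl34b.1 lie near 0 at 5 dpf and at 2.00 to 2.30 at 8 dpf, and mmp9, mmp13a and cebpb lie below the line.

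Of 11 measured antigen presentation genes beside cd74b, 10 rose and none fell at 8 dpf, and 7 rose and none fell at 5 dpf, with a median of 0.87 and 0.37. The gene b2m, for the light chain of MHC class I, rose by 1.01 ± 0.09 at 8 dpf (adjusted p = 1.26e-06) and 0.37 ± 0.08 at 5 dpf (adjusted p = 0.00203), and the effects at these ages differed by 0.63 ± 0.13 (adjusted p = 0.00335). The endoplasmic reticulum gene pdia3, part of peptide loading of MHC class I and of protein folding in all cells, rose by 1.19 ± 0.12 (adjusted p = 2.37e-06) and 1.03 ± 0.11 (adjusted p = 1.66e-06). Of the 11, the effect was more positive at 8 dpf for cd74a and b2m and more negative for none. Over all genes these shares were 11.9% and 6.92%, and the counts of the list were not tested against them. No MHC class II chain of the list was analysed here.

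A list of granulin partners and general lysosomal genes was counted as well. Of 13 measured, 7 rose and 2 fell at each of the ages, with a median log2 fold change of 0.25 at 8 dpf and 0.34 at 5 dpf, where 19.6% of all genes rose at 8 dpf and 24.2% at 5 dpf. The cathepsin gene ctsba rose by 1.36 ± 0.07 at 8 dpf (adjusted p = 4.88e-09) and 1.201 ± 0.067 at 5 dpf (adjusted p = 3.87e-09), and ctsk, a cathepsin of bone and matrix breakdown, by 1.37 ± 0.19 (adjusted p = 5.12e-05) and 2.09 ± 0.17 (adjusted p = 1.59e-07). The lysosomal membrane gene tmem106ba fell by 0.64 ± 0.09 (adjusted p = 5.17e-05) and 0.87 ± 0.08 (adjusted p = 5.17e-07). At 8 dpf tmem106bb also fell, by 0.21 ± 0.06 (adjusted p = 0.0104), and at 5 dpf so did the sorting receptor gene sort1b, by 0.40 ± 0.14 (adjusted p = 0.028), both named after their values were seen. The count of 2 that fell became 1 in 5 of 21 alternatives at 8 dpf, among them the fits that left out replicate 1 of control 5 dpf, replicate 1 of PTU 5 dpf and replicate 3 of PTU 8 dpf. At 5 dpf it became 1 in 9 of 21, among them the fits that left out replicate 1 or 3 of control 5 dpf, replicate 1 or 2 of PTU 5 dpf, and replicate 1 of control 8 dpf.

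Most lists of other cells also had genes past the threshold at both ages, but at 8 dpf the muscle, erythrocyte and lymphocyte lists had none. For scale, the share of all genes that were higher in PTU eyes was 19.6% at 8 dpf and 24.2% at 5 dpf. The share that were lower was 13.2% at 8 dpf and 22.8% at 5 dpf. Lists were not tested against these shares, so low counts in short lists do not show a change of that cell type. Of 14 lens genes 10 fell and 2 rose at 8 dpf, and 13 fell and 1 rose at 5 dpf; the mean log2 level of the list was -0.74 to -0.33 in PTU extracts and -0.24 to 0.05 in control extracts of 8 dpf, and -1.74 to -1.34 in PTU extracts and -0.11 to 0.20 in control extracts of 5 dpf. Of 18 photoreceptor genes 6 fell and 5 rose at 8 dpf, and 13 fell and 1 rose at 5 dpf, with a mean level of -1.39 to -0.83 in PTU extracts and -0.93 to -0.71 in control extracts of 8 dpf, and of -1.46 to -1.09 in PTU extracts and -0.34 to 0.23 in control extracts of 5 dpf. Of 8 liver genes, 3 rose and 1 fell at 8 dpf (median -0.09), and at 5 dpf 1 rose and 7 fell (median -1.75). The mean level of the liver list was -1.46 to -0.95 in PTU extracts and -1.13 to -0.80 in control extracts of 8 dpf, and -1.78 to -1.18 in PTU extracts and -1.09 to 0.61 in control extracts of 5 dpf. Of 9 pigment cell genes, 2 rose and 2 fell at 8 dpf (median -0.04), and at 5 dpf 1 rose and 7 fell (median -0.62), with a mean level of -0.36 to -0.11 in PTU extracts and -0.45 to -0.27 in control extracts of 8 dpf, and of -0.59 to -0.48 in PTU extracts and -0.22 to 0.16 in control extracts of 5 dpf. The 1 measured gene of the thrombocyte list, fn1b, which encodes a fibronectin, rose by 0.88 at 8 dpf (adjusted p = 0.000605) and 2.16 at 5 dpf (adjusted p = 2.4e-08). The part of these lists in the values of the leukocyte markers was not tested. Of 5 erythrocyte genes none rose or fell at 8 dpf (0 at an unadjusted p under 0.05), and 1 rose and 1 fell at 5 dpf. The mean level of the erythrocyte list was -1.05 to -0.65 in PTU extracts and -1.07 to -0.94 in control extracts of 8 dpf, and 0.11 to 0.41 in PTU extracts and -0.62 to 0.37 in control extracts of 5 dpf. For lymphocytes 1 gene of 16, il7r, was measured, with -0.09 at 8 dpf (adjusted p = 0.666) and -0.15 at 5 dpf (adjusted p = 0.354), so that lymphocytes were hardly covered. Of 5 endothelial genes, 1 rose and none fell at 8 dpf (1 lower at an unadjusted p under 0.05), and 1 rose and 1 fell at 5 dpf. Of 9 Mueller glia genes, 2 rose and 2 fell at 8 dpf, and at 5 dpf 3 rose and 4 fell. Of 16 epidermis genes, 1 rose and 4 fell at 8 dpf, and at 5 dpf 1 rose and 6 fell. The mean level of the epidermis list was -0.66 to -0.45 in PTU extracts and -0.46 to -0.25 in control extracts of 8 dpf. At 5 dpf its range in PTU extracts, -0.23 to -0.20, lay within that in control extracts, -0.44 to 0.23. Of 17 muscle genes, none rose or fell at 8 dpf (0 at an unadjusted p under 0.05), and 5 rose and none fell at 5 dpf (0 lower at an unadjusted p under 0.05). The mean level of the muscle list was -0.68 to 0.19 in PTU extracts and -0.55 to -0.27 in control extracts of 8 dpf. At 5 dpf its range in PTU extracts, 0.22 to 0.47, lay within the wide range in control extracts, -0.97 to 0.91.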

How the data were processed

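Eyes of PTU and control larvae of 8 and 5 dpf (3 extracts of 10 larvae each per group) had been hybridised on 14 two-colour Agilent arrays. The authors read spots with GenePix Pro, left out those near background on all arrays, corrected the background with normexp and normalized each array by loess in limma 3.34.4. The deposited log2 ratios give Cy5 over Cy3; the table states neither base nor direction, which were taken from the methods and the dye labels. Dye-swapped arrays had ratios of opposite sign (turned alike, r over all probes was 0.404 to 0.785 at 8 dpf and 0.595 to 0.833 at 5 dpf), and array medians lay between -0.012 and -0.001. Single-channel intensities were not analysed here, which leaves signal over background unknown. Precision is limited by the 3 extracts per group as well as by the number of arrays.

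Of 16914 probes, 1 control was left out. Through the GRCz12tu annotation 13708 probes were assigned to 8445 genes (11865 by accession, 1446 by current and 391 by older symbol, 6 with the platform's symbol), and 3205 had no single gene. Probes of a gene were averaged. The test of genes used limma 3.58.1 (R 4.3.3) over all 14 arrays (11 residual and 3.69 prior degrees of freedom), with a random effect of the extract (variance ratio to the array 0.138, estimated once over all genes) and Benjamini-Hochberg adjustment over all genes. Standard errors come from this model and understate the error of any gene with more variation between extracts than that ratio implies. Probes were tested with arrays as independent, as in the methods. A least squares fit over the arrays gave the level in each extract. The scripts were tested on simulated data.

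The 5 markers, the lists and the tests were chosen with earlier results of these data known. Named beside the markers were all measured paralogs, up to 4 genes per list with the smallest p at each age, of which the text gives a part, and the 3 genes most like each marker over the extracts. The alternatives were arrays as independent, levels per extract, arrays pairing PTU and control alone, centring, scaling, a dye effect, robust moderation, the replicate number as a block, 1 probe per gene, and leaving out each extract. Promoter, protein and probe sequences were not analysed here.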

Additional observations from a re-analysis of the deposited data

Results flagged for a closer look

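The PTU effect differed between the ages, by the test of the difference itself in limma over 14 arrays, for each of the 5 markers. Age and the end of exposure cannot be told apart in this difference. For aif1l the difference lost the threshold in 10 of 21 alternatives, with a limma adjusted p of up to 0.138. The effect at 8 dpf minus that at 5 dpf was 2.28 for cd74b (adjusted p = 9.74e-08), 0.84 for grna.2 (adjusted p = 0.000521), 0.76 for lcp1 (adjusted p = 0.00242), 0.66 for coro1a (adjusted p = 0.000597) and 0.68 for aif1l (adjusted p = 0.0324). For lcp1, coro1a and grna.2 this is a rise that was larger at 8 dpf, for cd74b a rise at 8 dpf beside overlapping groups at 5 dpf, and for aif1l a change of sign between 2 effects that did not pass the threshold on their own.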

How the results depend on the processing

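The 25 values of the 5 markers (5 contrasts each) were recomputed under the alternatives, 515 times in all. The side of the threshold was the same in 476, the threshold was lost in 18 and newly passed in 21. No called value changed sign, while the sign turned in 11 of the recomputed values of 2 results that never passed. These were 7 of cd74b for PTU at 5 dpf (down to -0.03) and 4 of aif1l in PTU eyes between the ages (down to -0.19). The changed calls were those of aif1l in 4 contrasts, of lcp1 in PTU eyes between the ages and of grna.2 in control eyes between the ages. For aif1l the PTU effect passed in 7 of 21 alternatives at each age, and was 0.25 to 0.55 at 8 dpf and -0.42 to -0.21 at 5 dpf over all of them. The count of markers that rose was 4 to 5 at 8 dpf and 3 at 5 dpf, and that of markers with a more positive effect at 8 dpf was 4 to 5. Of the 53 other genes of the leukocyte and antigen presentation lists, 43 to 48 rose at 8 dpf and 39 to 41 at 5 dpf. None fell under any of these settings.

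The main test did not take the replicate numbers in the labels as a pairing. The correlation of deviations of same-numbered PTU and control extracts was -0.221 to 0.627, and 2 of 6 PTU extracts were closest to the control extract of their own number. With 3 extracts per group and arrays shared between extracts, these values cannot show whether same-numbered extracts shared a plate or batch. With the replicate number as a block, the effect on lcp1 was 3.12 at 8 dpf and 2.37 at 5 dpf. Of the 53 genes of the leukocyte and antigen presentation lists, 46 and 40 rose. Of the marker calls only that of grna.2 in control eyes was lost (0.46, adjusted p = 0.0604).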
